A study of Mus musculus with 4 samples.

Results

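Chromatin accessibility was examined at 10 genes of glucose uptake and glycolysis in the mouse heart. The genes were Slc2a1, Slc2a4, Hk1, Hk2, Pfkm, Pfkfb3, Pdk4, Pdk2, Ldha and Ldhb, chosen by name from the 21670 protein-coding genes of the GENCODE annotation of mm10. ATAC-Seq, in which the transposase Tn5 cuts and tags open DNA, had been run on nuclei sorted from whole hearts of male NuTRAP/Cdh5-Cre mice on the C57BL/6 background, aged 8 to 12 weeks. GFP+ nuclei carry the tag that Cdh5-Cre, expressed in endothelial cells (ECs), switches on, so the GFP+ gate follows endothelial descent, and GFP- nuclei are the untagged nuclei of the same hearts. The sort kept single, non-dividing nuclei of diploid DNA content, so nuclei of higher DNA content are in neither list. Each population had 2 replicates of 100 to 50000 nuclei, tagmented with 2.5 µL of Tn5 per 50000 nuclei by the labels (the study's resource list names a smaller amount), and both replicates went into 1 peak list per population. There is thus no spread between replicates behind any value below, no test was possible, and every comparison is a comparison of 2 lists. Nothing measured here is RNA or protein.

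Glucose enters cells through GLUT transporters, is phosphorylated by hexokinase and committed to glycolysis by phosphofructokinase, and its pyruvate is either burnt in mitochondria or reduced to lactate. Each of these steps has isoforms with different tissue preferences. Striated muscle is known for the insulin-responsive transporter GLUT4 (Slc2a4), hexokinase II (Hk2), the muscle subunit of phosphofructokinase (Pfkm), the pyruvate dehydrogenase kinase that restrains glucose oxidation during fasting (Pdk4) and the heart-type lactate dehydrogenase subunit (Ldhb). ECs are known as glycolytic cells that use GLUT1 (Slc2a1), hexokinase I (Hk1), the kinase that makes the allosteric activator of phosphofructokinase (Pfkfb3), and the muscle-type lactate dehydrogenase subunit (Ldha), and Pdk2 is a broadly expressed pyruvate dehydrogenase kinase. The first 5 genes are called muscle forms below and the last 5 the other forms. Pfkm and Pfkfb3 are set side by side as genes of the same step and are not isoforms of each other.

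The GFP- list held 78912 peaks covering 52.1 Mb and the GFP+ list 65008 peaks covering 41.8 Mb. The size of a peak is its area, the signal that the peak caller summed over its length, and areas are not scaled between lists. Each peak was therefore given its percentile rank by area in its own list, from 0 for the smallest to 100 for the largest. A start peak is one that reaches within 250 bp of an annotated protein-coding transcript start, the gene takes its highest-ranked start peak, and a list with no such peak counts as 0. Differences are the GFP+ rank minus the GFP- rank in percentile points, and 10 points or more were called.

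The labels were checked against marker starts fixed by name. All 8 endothelial markers (Cdh5, Pecam1, Tie1, Kdr, Egfl7, Emcn, Erg and Robo4) had a start peak in the GFP+ list, ranked 57.5 to 93.0, and all 8 were at least 10 points higher there. In the GFP- list 5 of the 8 had a start peak, at ranks up to 74.3, and Pecam1, Emcn and Erg had none. All 8 cardiomyocyte markers had a start peak in both lists, with a lowest GFP+ rank of 79.6 (Pln) and medians of 99.6 in GFP- and 94.0 in GFP+. Actc1, at 99.9 and 88.5, was the cardiomyocyte marker called lower in GFP+. Of 8 fibroblast markers, 6 had a start peak in GFP- and 1 (Pdgfra, 87.0) in GFP+, and of 8 pericyte and smooth muscle markers, 8 and 3. Of 8 macrophage and leukocyte markers only Cd68 had one, at 31.8 and 16.8. In such lists, more nuclei of a cell type and more open chromatin per nucleus cannot be told apart. Cardiomyocyte marker starts were thus open in the GFP+ list beside every muscle form described next, and their part in those results was not tested.

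All 10 genes had a start peak in both lists. Of all protein-coding genes, 60.8% had a start peak in the GFP- list and 58.8% in the GFP+ list. Ranks of the 10 ran from 90.2 (Ldhb) to 99.3 (Pdk2) in GFP- and from 87.9 (Pfkm) to 99.1 (Slc2a4) in GFP+, and the median over all genes with a start peak in either list was 90.3 in GFP- and 88.7 in GFP+. Ldhb and Pfkm thus lay near that median and the other 8 genes above it in both lists. The Pfkm rank is that of a peak over the start of its neighbour Senp1. The start of the transcript Pfkm-201 had a peak at 87.7 in GFP- and 83.2 in GFP+. None of the 10 was at least 10 points lower in GFP+, against 12% of the 13379 genes with a start peak in either list. None was at least 10 points higher, against 3.45% of those genes. All 10 ranked 90.2 or more in GFP-, so a rise of 10 points would have passed the top of the scale. The lack of called rises is thus not read as a trait of these genes. The median difference of the 10 was -0.72 points, beside -0.81 over all genes with a start peak. Over the 6848 genes that, like the 10, had a start peak in both lists and ranked 90 or more in GFP-, it was -0.47. All 5 muscle forms ranked lower in GFP+, as did 3 of the 5 other forms, and Ldha and Pfkfb3 ranked higher by less than 1 point. Over all genes the lower rank in GFP+ was also the commoner direction, with 9549 of 13379 genes. With both lists cut to the same number of largest peaks, 3 of the 5 muscle forms ranked lower in GFP+ and the median of all genes became 0.42.

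**Figure D1:**
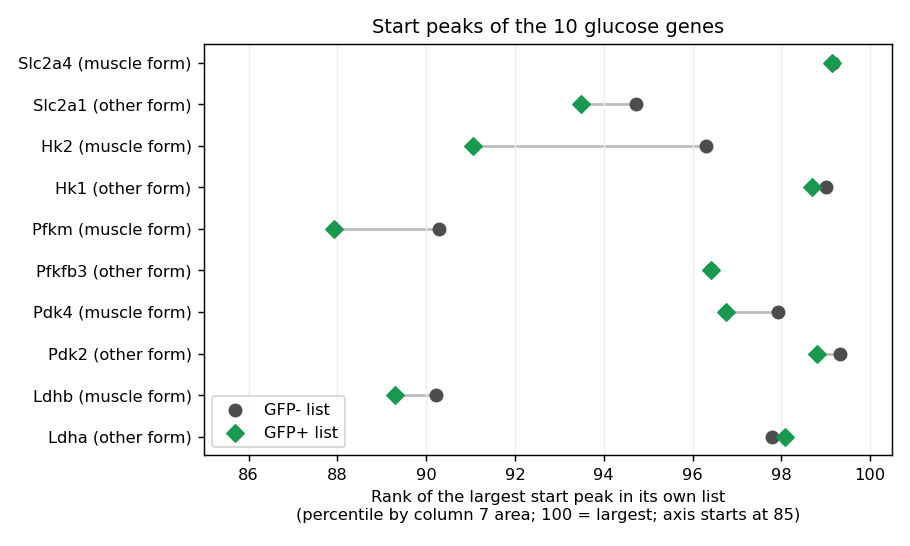
Rank of the largest start peak of each gene in the GFP- list (grey circles) and the GFP+ list (green diamonds), in percentiles of its own list, on an axis that starts at 85, with muscle and other forms of each step in neighbouring rows. The circle and the diamond of most genes nearly coincide, and the widest gap is that of Hk2, from 96.3 to 91.1. The Pfkm points are those of a peak over the Senp1 start.

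Both transporter genes were open. Slc2a4 (chr11:69942539-69948188, minus strand) had a start peak of rank 99.2 in GFP- and 99.1 in GFP+, the 663rd largest of its list in the first and the 559th in the second. The peak spanned 2257 bp in GFP- and 2077 bp in GFP+, and the whole GFP+ peak lay inside the GFP- one. Its area per bp was 5.05 in GFP- and 4.79 in GFP+. Slc2a1 (chr4:119108711-119137983, plus strand) had ranks of 94.7 and 93.5. Its start peak was longer in GFP-, at 1416 bp against 1058 bp, with the same downstream edge in both lists, and the summit sat 306 bp after the nearest start in GFP- and 44 bp after it in GFP+. The muscle transporter thus outranked the endothelial one in both populations, by 4.43 points in GFP- and 5.67 points in GFP+.

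The hexokinase genes showed the widest gap between lists. Hk2 (chr6:82725025-82774454, minus strand) ranked 96.3 in GFP- and 91.1 in GFP+, a difference of -5.25 points and 18.1% of all genes with a start peak lay below it. The GFP- peak was 1 block of 2421 bp, and the GFP+ list had 2 start peaks in its place, the larger of 1777 bp and a second that ranked 48.2 at the most downstream start. Hk1 (chr10:62268855-62379908, minus strand) ranked 99.0 in GFP- and 98.7 in GFP+. Hk1 had 10 annotated protein-coding starts and 2 of them were open in both lists, the start of the transcript Hk1-202 and another 52141 bp into the gene, where ranks were 54.2 and 37.1. The 5′ end of the gene and the next 6 starts had no peak in either list. Hk1 outranked Hk2 by 2.71 points in GFP- and by 7.63 points in GFP+.

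Of the phosphofructokinase step, Pfkm (chr15:98092589-98132451, plus strand) ranked 90.3 in GFP- and 87.9 in GFP+. That peak has its summit 739 bp (GFP-) or 683 bp (GFP+) downstream of the nearest Pfkm start. It covers no Pfkm start and counts only because it reaches within 250 bp of one. The gene start inside it is that of Senp1, a SUMO protease gene with the same ranks. The Pfkm rank is thus that of a peak over the Senp1 start. The start of Pfkm-201, 15.9 kb downstream, had a peak of its own with ranks of 87.7 and 83.2. Pfkfb3 (chr2:11471433-11554077, minus strand) ranked 96.4 in both lists. Its summit lay 84 bp before the nearest start in GFP- and 265 bp after one in GFP+. The 5′-most start of Pfkfb3 was open at 88.0 and 84.8.

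Of the genes that steer pyruvate, Pdk4 (chr6:5483351-5496309, minus strand) ranked 97.9 in GFP- and 96.8 in GFP+, with peaks of 1520 and 1577 bp. Pdk2 (chr11:95026258-95041354, minus strand) ranked 99.3 and 98.8, with peaks of 3034 and 2572 bp. Ldha (chr7:46841475-46855627, plus strand) ranked 97.8 in GFP- and 98.1 in GFP+, and its summit fell on the same base in both lists, 35 bp before the nearest start. Ldhb (chr6:142490249-142507957, minus strand) ranked 90.2 and 89.3. In these 2 steps the other form outranked the muscle form by area in both populations, by 1.38 and 2.05 points for Pdk2 over Pdk4 and by 7.55 and 8.78 points for Ldha over Ldhb. Ranked by area, the order of the 2 genes of a step was the same in GFP- and GFP+ at all 5 steps. Ranked by −log10 p it was the same at 3, with Pdk4 above Pdk2 in GFP+ only and Ldhb above Ldha in GFP- only. By that measure Pfkm stood above Pfkfb3 in both lists, the reverse of their order by area. Ranked by area per bp the order was the same at 4, with Pfkm above Pfkfb3 in GFP- only, and Pdk4 stood above Pdk2 in both lists. Slc2a4 stood above Slc2a1 and Hk1 above Hk2 in both lists by all 3 measures.

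The 10 genes have 49 distinct protein-coding starts. In both lists 36 of them had a peak, in neither list 13, and in 1 list only 0, against 7.28% of all starts with a peak in either list. Starts of 1 gene often share a peak, as do the 4 of Slc2a1 and the 5 of Slc2a4. The 36 are thus fewer separate peaks, and the 0 is not read as a trait of these genes. Ldha had a peak at 11 of its 12 starts, although the 5′-most one was closed, Pfkm at 2 of 4, Ldhb at 2 of 4, and Slc2a1, Slc2a4, Hk2, Pfkfb3, Pdk4 and Pdk2 at all of theirs. The set of starts with a peak was thus the same in both populations, gene by gene, but the rank at a start could differ widely. At the starts of Ldha-206 and Ldha-213 the peak ranked 6.59 in GFP- and 98.1 in GFP+. There the largest Ldha start peak reached within 250 bp in GFP+ only.

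The promoter sequences are shown for 5 genes that hold the letters ACGTG, the core of the site bound by hypoxia-inducible factors, and for a closed and an open start of Hk1. RefSeq promoter windows (GRCm38.p6, from 250 bases before to 50 after a start) were at hand for 9 genes, 16 windows in all, and Slc2a4 was without one. Each line is a stretch before the RefSeq start, 5′ to 3′ on the strand of the gene. Those of Slc2a1, Pfkfb3 and the open Hk1 start end short of it, cut until at most 5 bases lay in an annotated UTR. In those of Slc2a1, Pfkfb3 and the open Hk1 start the last 5 bases lie past a GENCODE start, and the marked Slc2a1 letters span it. Capitals mark ACGTG on either strand, read as CACGT on the other strand, and where the letters run CACGTG both strands match.
Slc2a1, chr4:119108566-119108715, plus strand: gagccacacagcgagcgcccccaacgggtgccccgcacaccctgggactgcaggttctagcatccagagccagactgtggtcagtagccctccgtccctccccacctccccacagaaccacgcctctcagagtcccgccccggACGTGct
Hk2, chr6:82774455-82774604, minus strand: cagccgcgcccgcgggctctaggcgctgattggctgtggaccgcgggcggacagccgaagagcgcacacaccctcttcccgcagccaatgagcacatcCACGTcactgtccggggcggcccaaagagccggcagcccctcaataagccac
Pfkfb3, chr2:11502097-11502246, minus strand: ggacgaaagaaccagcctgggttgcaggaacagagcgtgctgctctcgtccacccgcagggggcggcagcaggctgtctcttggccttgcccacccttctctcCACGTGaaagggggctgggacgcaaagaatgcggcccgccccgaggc
Pdk2, chr11:95041372-95041521, minus strand: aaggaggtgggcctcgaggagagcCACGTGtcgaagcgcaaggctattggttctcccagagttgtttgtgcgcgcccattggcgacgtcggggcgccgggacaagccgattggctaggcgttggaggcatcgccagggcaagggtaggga
Ldha, chr7:46845654-46845803, plus strand: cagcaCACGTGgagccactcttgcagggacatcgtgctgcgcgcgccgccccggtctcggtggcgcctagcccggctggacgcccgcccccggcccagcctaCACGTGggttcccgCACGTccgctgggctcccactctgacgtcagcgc
For Hk1, capitals mark CG pairs.
Hk1 closed 5′ start, chr10:62379909-62380058, minus strand: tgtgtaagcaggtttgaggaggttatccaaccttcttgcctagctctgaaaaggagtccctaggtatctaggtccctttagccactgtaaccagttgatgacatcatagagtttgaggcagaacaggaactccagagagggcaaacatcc
Hk1 open start of Hk1-202, chr10:62340538-62340671, minus strand: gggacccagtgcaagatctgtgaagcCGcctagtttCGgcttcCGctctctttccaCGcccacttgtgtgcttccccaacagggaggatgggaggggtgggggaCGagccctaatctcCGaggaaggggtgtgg

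ACGTG stood in 9 of the 16 windows, beside 19.6% of all 32851 windows in the reference. Of the 14 member windows with a peak in both lists, 8 windows of 7 genes held it, beside 25.98% of the 13870 open windows. Ldha had 5 matches in its window, counted on both strands, and Pdk4 and Ldhb had none. The Hk1 piece at the closed start had 0 CG pairs and a GC content of 47.3%, and the piece at the open start had 6 CG pairs and 61.9%. The open piece has 134 bases against 150 and ends farther from its RefSeq start, so the 2 are not matched in position. Over the open member windows the median GC content was 60.8%, beside 61.7% for all open windows. The letters GGGCGG, known as the box of Sp factors, were found in 5 of the 14 open windows (64.8% of all open windows). The ETS core AGGAAG stood in 6 (31.8%) and AGATAA, the site of GATA factors, in 3 (5.75%). None of the 16 windows matched AAGGTCA (bound by estrogen-related receptors), CAGCTG (an E-box), CCGGAAG (another ETS core) or the MEF2 motif. Of all open windows, 3.06%, 15.3%, 17.1% and 1.93% held them. CAGCTG was the only form searched as an E-box, and CACGTG was counted only under ACGTG. Slc2a4, without a window, was not searched. A match is a run of letters and not a measured binding site, and windows of 1 gene overlap.

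Other genes of the same pathway were mostly open in both lists too. A list of 45 further genes, from transporters through the glycolytic enzymes to the pyruvate dehydrogenase complex, had start peaks in both lists for 37 genes, in GFP- only for 1 and in neither for 7. The gene with a peak in GFP- only was Eno2, the neuron-type enolase, at rank 58.1. The next largest fall was that of Aldoc, from 38.3 to 29.0, followed by Pfkfb1 (78.7 to 70.4) and Pfkp (95.7 to 88.4), none past 10 points. Gapdh stood at 99.9 in both lists, and the muscle enolase Eno3 at 99.8 and 99.6. The median difference of the 38 pathway genes with a start peak was -0.38 points.

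**Figure D2:**
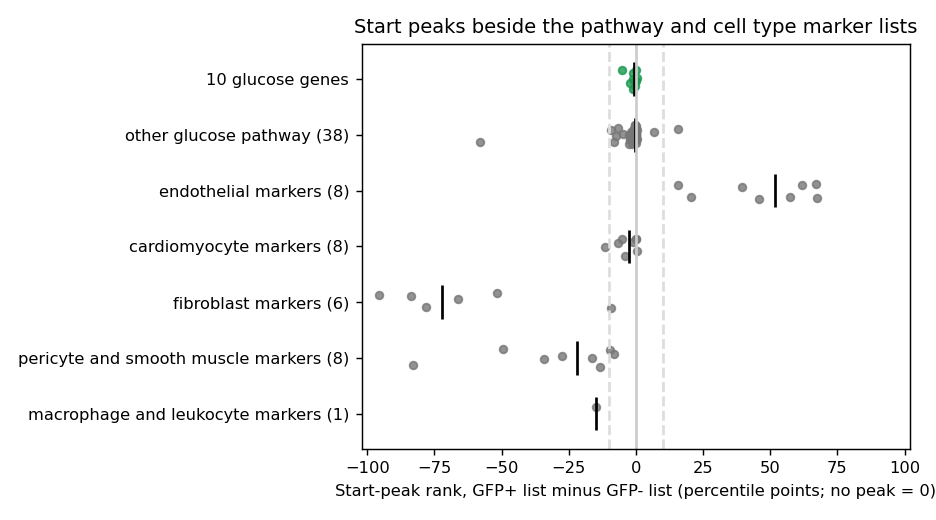
Start-peak rank in the GFP+ list minus that in the GFP- list, in percentile points, for the 10 glucose genes, 38 further pathway genes and the marker genes with a start peak in either list; each point is 1 gene, black bars are medians and dashed lines mark 10 points. All 10 glucose genes lie between -5.25 and 0.30, the endothelial markers lie to the right and most fibroblast markers to the left.

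Away from starts the lists differed more. Distal peaks are those whose summit lies more than 1000 bp from any protein-coding start, counted over each gene body and 50 kb to each side, and a peak is shared if it overlaps a peak of the other list by at least 1 bp. The GFP- list had 106 distal peaks in the 10 loci, of which 83 were shared (78.3%, Wilson 95% interval 69.5 to 85.1%), beside 64.9% of all distal GFP- peaks. The GFP+ list had 95, of which 85 were shared (89.5%, 81.7 to 94.2%), beside 83.8% of all distal GFP+ peaks. The intervals cover counting error only. In GFP- only there were 23 distal peaks and in GFP+ only 10. With both lists cut to the same length these numbers were 15 and 22, and the excess in GFP- was not seen.

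Loci of the muscle forms shared 41 of 45 distal GFP- peaks (91.1%, 79.3 to 96.5%) and loci of the other forms 42 of 61 (68.9%, 56.4 to 79.1%), the latter near the 64.9% of all distal GFP- peaks. In the GFP+ list the corresponding counts were 40 of 45 (88.9%) and 45 of 50. The 19 unshared GFP- peaks of the other forms lay in the loci of Slc2a1 (6), Hk1 (6), Pdk2 (5) and Pfkfb3 (2). The 4 of the muscle forms lay in those of Hk2 (1), Pfkm (1) and Ldhb (2). Distal regions of the muscle loci also ranked higher, with a median rank of 53.1 in GFP- against 46.9 for the other forms and 43.4 for all distal regions, and the part of peak size in these shares was not tested.

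**Figure D3:**
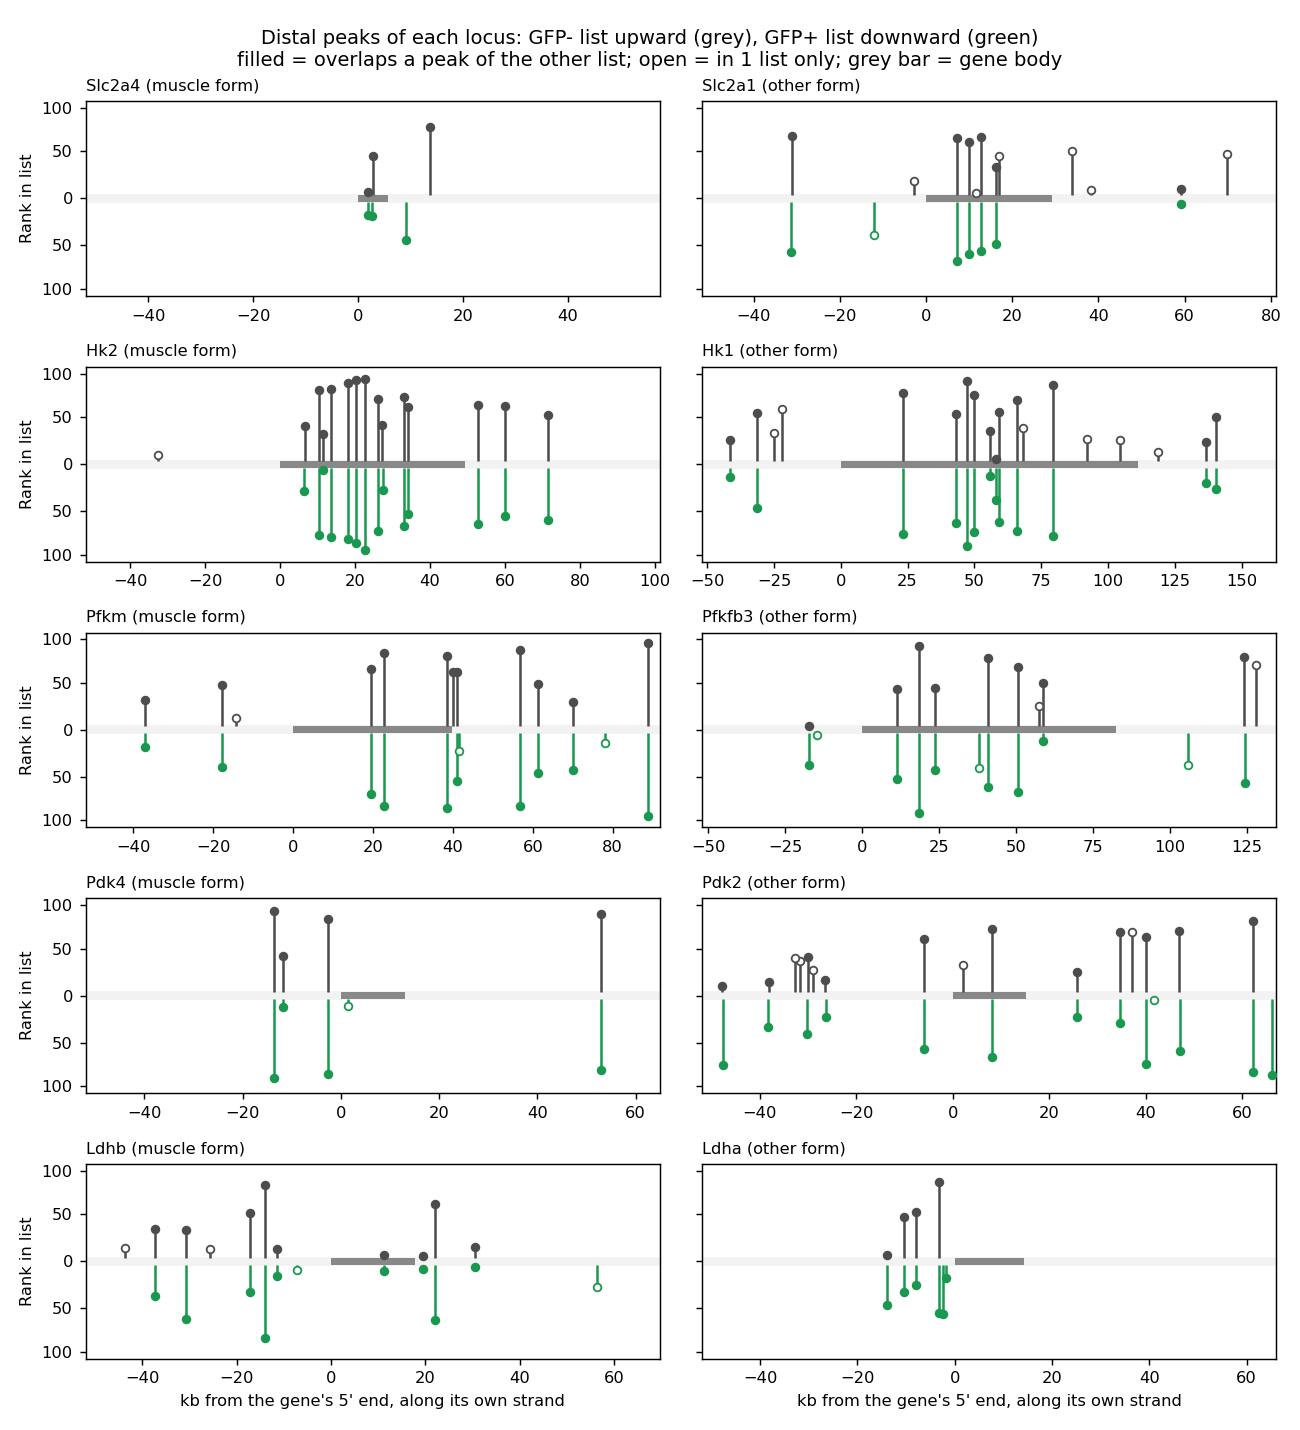
Distal peaks of each locus by distance in kb from the 5′ end of the gene, along its own strand, with GFP- peaks drawn upward and GFP+ peaks downward and the height giving the rank in the list; filled heads overlap a peak of the other list, open heads do not, and the grey bar is the gene body. Hk2 and Hk1 carry rows of intronic peaks in both lists, and the open heads of Slc2a1, Hk1 and Pdk2 stand mostly on the GFP- side.

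Peaks of both lists that overlap were then joined into 114 distal regions, 64 in introns, 42 between genes, 6 in coding exons, 1 in a UTR and 1 in a noncoding exon, with 46 inside the body of a member. A region takes the rank of its highest-ranked peak in each list, so a block split into several peaks ranks by 1 of them. Both lists had a peak in 81. Of the 114, 38 were at least 10 points lower in GFP+, beside 40.7% of all 71696 distal regions, and 16 were at least 10 points higher, beside 15.9%. At equal list length the called regions numbered 23 lower and 27 higher, and no share of all distal regions was computed at that setting. The median difference was -4.09 points, beside -5.57 over all distal regions. All 19 regions that ranked 80 or more in either list had a peak in both, beside 92.4% of all such regions. The largest region in GFP- only ranked 70.4 and the largest in GFP+ only 39.4. Just past the 10 points lay a Pdk2 region at -10.4 and a Slc2a1 region at -10.8, and just short of it a Slc2a1 region at -9.61 and an Hk1 region at 9.54.

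**Figure D4:**
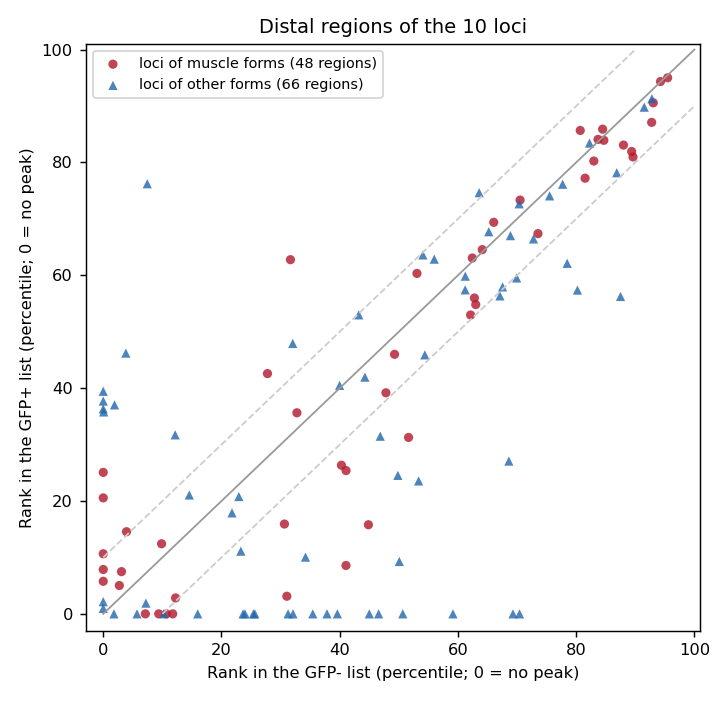
Rank of each of the 114 distal regions in the GFP- list (horizontal) and the GFP+ list (vertical), in percentiles, with 0 where a list has no peak; red circles are loci of muscle forms, blue triangles loci of other forms, the line marks equal ranks and the dashed lines 10 points. The 19 regions that rank 80 or more in either list are all off the axes, and the regions on the horizontal axis are the 23 in GFP- only.

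Hk2 had the densest set of large distal regions. Its introns held a region of 94.3 in both lists at 22.6 kb into the gene (chr6:82750692-82752270), followed toward the start by regions of 92.8 in GFP- and 87.1 in GFP+, 89.4 and 81.9, 83.0 and 80.3, and 81.5 and 77.2. Of the 15 Hk2 regions 14 had a peak in both lists, 3 were called lower in GFP+ and 0 higher. The lower ones were small, such as the region at 11.6 kb with 31.1 and 3.12. Hk1 had 19 regions, of which 13 were in both lists. Its largest lay in an intron 47.2 kb into the gene (chr10:62332238-62333500), at 91.5 and 89.8, and a second at 79.4 kb ranked 86.9 and 78.2. Its 6 regions in GFP- only included 1 in a coding exon of the neighbouring hexokinase-like gene Hkdc1 at 59.2. An Hk1 intron region at 58.2 kb went the other way, from 1.91 in GFP- to 37.0 in GFP+.

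Pfkm had 13 distal regions, and the largest of all 114 lay in its flank, 88.9 kb from its 5′ end (chr15:98180530-98181788), at 95.48 and 95.01. The nearest protein-coding start to that region is that of Olfr288, so it is given here by position and not assigned to Pfkm. Inside Pfkm the introns held regions of 84.7 and 83.9 at 22.7 kb and of 80.7 and 85.7 at 38.6 kb. Pfkfb3 had 13 regions, and its largest was in an intron at 18.5 kb (chr2:11534749-11536245), at 92.8 and 91.3. The Pfkfb3 locus also held the extremes of both lists. Beyond its 3′ end, 128 kb from the 5′ end, stood the largest region in GFP- only, at 70.4, beside a region of 80.2 in GFP- and 57.4 in GFP+. The largest region in GFP+ only, at 39.4, lay in a Pfkfb3 intron at 38.1 kb.

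Summit windows of 201 bases (GRCm38.p6, strand of the gene) are shown for the largest shared Pfkfb3 region, both one-list Pfkfb3 regions, the Hk2 region that matched the MEF2 motif and the Ldha region described below. Capitals mark ACGTG on either strand in the Pfkfb3 windows of both lists and of GFP-, AGATAA on either strand in that of GFP+, MEF2 in that of Hk2, and AGGAAG on either strand in that of Ldha.
Pfkfb3 intron, both lists, chr2:11535486-11535686, minus strand: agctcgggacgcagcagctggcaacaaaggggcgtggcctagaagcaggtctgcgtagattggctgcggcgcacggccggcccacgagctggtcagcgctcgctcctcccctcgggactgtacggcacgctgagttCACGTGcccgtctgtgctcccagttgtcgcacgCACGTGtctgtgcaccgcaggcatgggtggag
Pfkfb3 flank, GFP- only, chr2:11425958-11426158, minus strand: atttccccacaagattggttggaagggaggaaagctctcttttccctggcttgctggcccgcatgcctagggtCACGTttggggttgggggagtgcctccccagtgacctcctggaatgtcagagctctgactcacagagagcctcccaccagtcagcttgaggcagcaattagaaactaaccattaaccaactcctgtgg
Pfkfb3 intron, GFP+ only, chr2:11515880-11516080, minus strand: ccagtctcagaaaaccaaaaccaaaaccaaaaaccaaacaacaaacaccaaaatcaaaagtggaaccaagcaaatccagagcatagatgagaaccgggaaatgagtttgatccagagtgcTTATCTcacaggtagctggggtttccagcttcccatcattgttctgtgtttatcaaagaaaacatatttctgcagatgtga
Hk2 intron, both lists, chr6:82760795-82760995, minus strand: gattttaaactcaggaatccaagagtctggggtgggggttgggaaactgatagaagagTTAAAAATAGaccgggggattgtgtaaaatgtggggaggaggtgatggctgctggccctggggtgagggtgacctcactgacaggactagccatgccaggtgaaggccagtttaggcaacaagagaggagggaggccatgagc
Ldha flank, lower in GFP+, chr7:46838194-46838394, plus strand: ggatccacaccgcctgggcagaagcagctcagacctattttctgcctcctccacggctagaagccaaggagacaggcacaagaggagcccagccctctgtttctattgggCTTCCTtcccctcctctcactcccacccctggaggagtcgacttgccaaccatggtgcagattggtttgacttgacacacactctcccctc

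The shared Pfkfb3 window had 20 CG pairs and a GC content of 67.2%, and the GFP+ only window had 1 CG pair and 40.3%. Over the 114 distal summit windows, ACGTG was found in 24, beside 12.1% of all 71696, and AGGAAG in 36, beside 29.6%. Of the 10 regions in GFP+ only, 1 held AGGAAG, beside 43.4% of all regions in GFP+ only. MEF2 matched 4 of the 114, all with a peak in both lists, beside 5.63% of all, and AGATAA 9, beside 10.4%.

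Slc2a1 had 13 distal regions, of which 6 were in both lists, 6 in GFP- only and 1 in GFP+ only. The region in GFP+ only lay upstream, at -12.1 kb (chr4:119096434-119096732, negative distances being upstream), at rank 37.7. The larger ones in GFP- only stood at 33.7 kb (50.7), in an exon of Ermap at 69.8 kb (46.6) and in an intron at 17.0 kb (45.01). Intron regions of 65.2 and 67.7 at 7.24 kb and of 61.2 and 59.8 at 10.03 kb were alike in both lists. The compact Slc2a4 locus, crowded with other starts, had 2 distal regions, 44.9 and 15.8 in a coding exon and 3.94 and 14.6 in an intron. Slc2a4 had 3 distal peaks per list, all shared, and the most distant, at 13797 bp in GFP- (78.3) and at 9205 bp in GFP+ (43.2), each overlapped a peak of the other list whose summit was near a start.

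Pdk4 had 5 distal regions, and 3 of them ranked above 80 in both lists. These were at -13.7 kb (chr6:5509237-5510218) with 93.0 and 90.6, at -2.56 kb with 84.5 and 85.9, and at 52.9 kb with 89.6 and 81.0, and Pdk4 was the nearest gene start of all 3. Another, at -11.7 kb, went from 41.1 to 8.58. Pdk2 had 17 regions in a gene-rich flank, with 7 called lower and 3 higher in GFP+. The steepest rise of all 114 was at -47.7 kb (chr11:95088456-95089676), from 7.45 in GFP- to 76.2 in GFP+, where the nearest start is that of Itga3, an integrin subunit gene. Within Pdk2 itself an intron region at 8.07 kb stood at 72.8 and 66.4, and 1 at 2.13 kb was in GFP- only at 31.3. A Pdk2 region in GFP- only, at 69.3, lay in an intron of Ppp1r9b.

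Ldha and Ldhb had distal regions mainly upstream. The Ldha locus held 4, all upstream and all with peaks in both lists, of which 3 were called lower and 1 higher. At -3.18 kb (chr7:46837937-46839857) GFP- had 1 peak of 1754 bp at 87.5, and GFP+ had 3 shorter peaks of which the highest ranked 56.3. The areas of those 3 were 805, 828 and 291, and only the highest-ranked sets the rank of the region. The part of this split in the called difference was not tested. At -13.9 kb the rank was 3.82 in GFP- and 46.2 in GFP+. Ldha was the member whose start peak ranked higher in GFP+ by the widest margin, 0.30 points, while its median distal difference over its 4 regions, -22.6 points, was the lowest of the 10. That median includes the region split in GFP+. The Ldhb locus held 13 regions with a median difference of 2.31 points, 9 of them higher in GFP+. Its largest, at -13.9 kb (chr6:142521290-142522253), stood at 83.7 and 84.1, and the region at -30.8 kb rose from 31.7 to 62.8.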

How the data were processed

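Per the submitters' processing notes, the authors used CASAVA 1.4, Bowtie2 2.3.5.1, SAMtools 1.19, Picard and Genrich with mm10, and the study's methods add fastp, duplicate removal and downsampling of libraries before peaks were called on both replicates together. The deposited columns are a signal (the area of a peak, ranked here), a −log10 p-value of the summit (an alternative) and a score, which the authors' caller set to the area per bp, scaled and limited, and which was not used. Downsampling set the libraries to a common depth, but the lists hold no read count per peak, so no interval on a single peak could be given. Starts and bodies came from GENCODE M21 on chromosomes 1 to 19 and X, and all peak ends lay within the GRCm38 chromosome lengths. All 10 genes are described, with each gene's largest start peak and largest distal peaks per list, pathway genes with a start peak in 1 list and the 4 largest differences of 10 points or more in each direction. Regions beyond these, genes under 10 points and windows to print were picked after their values were seen. Some genes of the pathway list are not reported here by name. The members, lists and motifs were chosen with earlier results of these data known. Code was tested on constructed intervals. Python 3.11.15, numpy 2.4.6, pandas 2.3.3, scipy 1.17.1, pysam 0.24.0 and matplotlib 3.10.9 were used.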

Additional observations from a re-analysis of the deposited data

How the results depend on the processing

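No paired analysis was possible because the lists hold no value per replicate, and for the same reason no replicate could be left out. All 10 genes kept a start peak in both lists with a 1000 bp window, with noncoding starts added, with ranks by −log10 p or by area per bp, with only the larger 50% of each list and with lists of equal length, and with the gene record's 5′ end as the only start 7 did, the closed 5′ ends being those of Hk1, Pfkm and Ldha. None was called higher under any of these settings. With the 1000 bp window, with noncoding starts added or with −log10 p, all 10 ranked 90.2 or more in GFP-. A rise of 10 points was thus not possible under those settings. When only the larger 50% of each list was ranked, 1 gene (Hk2, -10.5 points on the stretched scale) was called lower. The sign of the small start differences depended on the setting. The muscle forms ranked lower in GFP+ were 3 with lists of equal length, where the median of all genes moved from -0.81 to 0.42, and the other forms ranked higher were 0 with the 5′ end only, 0 with −log10 p and 1 with area per bp. The order of the 2 genes of a step changed between lists at 2 of 5 steps with −log10 p (Pdk4 and Pdk2, Ldhb and Ldha) and at 1 of 5 with area per bp (Pfkm and Pfkfb3). It changed at 0 with the other settings, of which the 5′ end alone left 2 steps to compare. Distal peaks in GFP- only numbered 35 when 50% of both peaks had to overlap, 11 with a 10 kb flank, 9 with the larger 50% and 15 with equal lists, and those in GFP+ only 23, 4, 3 and 22. With the 50% overlap, 67.0% of GFP- and 75.8% of GFP+ distal peaks were shared (55.6% and 70.3% of all), and with equal lists 76.8% of GFP+ peaks were (75.0% of all). Of regions, an alternative chosen after seeing the data, 23 were called lower and 27 higher with equal lists, and 33 higher with area per bp. Shares of all distal regions were not computed for these alternatives, so the counts cannot be read as a trait of the 10 loci. The excess of GFP- only over GFP+ only peaks thus did not hold at equal list length.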

Other observations

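The flanks of the 10 genes held the starts of 31 other protein-coding genes, of which 22 had a start peak in both lists, 7 in neither, and 2 in GFP- only. Those 2 were Samd14, beside Pdk2, at rank 73.2, and Cldn7, a tight junction claudin beside Slc2a4, at rank 16.3. No neighbour was at least 10 points higher in GFP+, beside 3.45% of all genes with a start peak in either list. The 2 in GFP- only were the neighbours at least 10 points lower, beside 12% of those genes. Of the 31, 24 had a start peak in GFP- and 22 in GFP+, beside 60.8% and 58.8% of all protein-coding genes.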
